A study of Mus musculus with 2 samples.

Results

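The clustered histone genes, taken as every gene whose symbol begins with Hist1h, Hist2h, Hist3h or Hist4, numbered 67 of the 32285 genes listed for the assay. They comprised 6 genes of the linker histone H1 and 18 of H2A, 18 of H2B, 12 of H3 and 13 of H4, the core histones. They were followed in bone marrow (BM) Lin-Sca-1+c-Kit+ cells (LSKs), the fraction that holds stem cells and early progenitors, from mice 8 to 10 weeks old, whose RNA was sequenced in droplets with a 3′ single cell kit. The miR-142 WT CML library came from BCR-ABL+ mice, and the miR-142 KO CML library from Mir142 KO BCR-ABL+ mice, both on the C57BL/6 background. They are called WT and KO below. All animals carried SCLtTA/BCR-ABL, in which the SCL promoter drives BCR-ABL once tetracycline is withdrawn, and cells were sorted 2 weeks after withdrawal. How many mice stood behind each library was not stated. With 1 library per group there was no test, and intervals below are exact 95% intervals for counting error and leave out the spread between mice.

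Histones package DNA. Pairs of H2A with H2B and pairs of H3 with H4 build the nucleosome core, and H1 binds the linker DNA between nucleosomes. Most of these proteins come from replication-dependent genes that sit in clusters, are transcribed during S phase and have no intron, and whose mRNAs end in a conserved stem-loop, bound by the protein Slbp, in place of a poly(A) tail. The assay used here primes on stretches of A, so a level below is that of the molecules captured in this way and need not be the total level of a histone mRNA. A kit of this type counts molecule ends, so levels were not divided by gene length, and capture may differ between genes.

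Barcodes with 8000 or more unique molecular identifiers (UMIs) and under 10% mitochondrial UMIs were used, 5363 in miR-142 WT CML (median 19443 UMIs) and 5458 in miR-142 KO CML (median 24182 UMIs). They held 138183896 and 158438757 UMIs, and 4 barcode sequences occurred in both libraries. Mir142hg, the host transcript of the deleted miRNA, had 1260 UMIs in WT and 20 in KO (log2 ratio -6.17, interval -6.89 to -5.54). The sort markers were present in both libraries, with Kit at 86.4 and 68.3 and Ly6a, the gene of Sca-1, at 96.8 and 153 UMIs per 1000000 UMIs (CPM). At this scaling the median log2 ratio of the 11652 genes tested (mean of 1 CPM or more) was -0.12 (KO over WT), a general shift against which each ratio below should be held. Of the members 55 passed this filter. The other 12 had 0 to 137 UMIs per library and are not compared.

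The 3′ ends of the members are shown first because they define this gene class and bear on what the assay can count. In the GRCm38 annotation (GENCODE M21) a stem-loop of 6 paired bases around a loop of 4 was found in 46 of the 67 members, starting 22 to 59 bases after the stop codon. The 4 most frequent forms are given below, read 5′ to 3′ on the mRNA strand, with the paired stem in capitals and the loop in lower case.
Form in 26 members of H1, H2A, H2B and H3: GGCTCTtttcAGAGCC
Form in 7 members, all H4: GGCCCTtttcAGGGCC
Form in 6 members of H1, H2B and H3: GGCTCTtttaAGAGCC
Form in 2 members, both H4: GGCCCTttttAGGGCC
The 12 H4 members with a stem-loop shared no form with any other type, and 2 of them carried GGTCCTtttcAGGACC. The remaining 21 members showed no such stem-loop, and in 17 of these the annotated transcript ended 48 or fewer bases after the stop codon, so that the stretch could lie beyond its end. The letters describe the annotation and not the molecules that were counted.

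Near-identical copies limit what can be said of single members. Windows were taken from the last 500 bases of 1 annotated transcript per member, the shortest coding one. On these, 28 of 67 members shared at least 50% of their 101-base windows (the read length) with another gene, and 19 shared none. Every window was shared in the pairs Hist2h2aa1 with Hist2h2aa2, and Hist1h2bq with Hist1h2br. Those of the first pair were shared with Gm20634 among others, and those of the second with each other. Longer annotated transcripts of Hist1h2bq and Hist1h2br were not judged. In each pair nearly all UMIs stood under 1 name: Hist2h2aa2 had 0 UMIs in both libraries and Hist1h2bq 0 and 1. Hist1h1e shared 99.0% of its windows with Hist1h2be, which overlaps it on the same strand. Values for these genes are uncertain, since reads that match several genes may have been dropped or assigned to 1 copy.

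The libraries were first compared over the whole class. Together the 67 members stood at 3607 CPM in miR-142 WT CML against 1951 CPM in miR-142 KO CML, with log2 ratio -0.89 (interval -0.89 to -0.88). Most of this gap lay in H2A, which stood at 2371 (WT) and 946 CPM (KO) (log2 ratio -1.33, interval -1.33 to -1.32). The other types differed far less. H3 was at 152 and 103 CPM (-0.57, interval -0.60 to -0.54), and H1 at 693 and 548 CPM (-0.34, interval -0.35 to -0.33). H2B, at 182 and 167 CPM (-0.12, interval -0.15 to -0.10), and H4, at 210 and 188 CPM (-0.16, interval -0.18 to -0.13), differed by about as much as the median of all tested genes. The class was thus dominated by few genes. A single one, Hist1h2ap, held 46.5% of all member UMIs in WT and 27.8% in KO. Without it the class stood at 1929 and 1410 CPM (log2 ratio -0.45), and without Hist1h2ap and Hist1h2ae at 1398 and 1132 CPM (-0.30). H2A without these 2 genes was at 162 and 127 CPM (-0.35), near the ratio of H1. The libraries differed in makeup, with 25.2% of WT and 64.7% of KO barcodes granule-high (defined below), and with both weighted to the same lineage and phase composition the log2 ratio of the class was -0.69.

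Counted by member, 12 of 55 were at least 1.5-fold lower in KO, where 11.7% of all tested genes were, and 1 of 55 was at least 1.5-fold higher, where 3.94% were. The 12 comprised 5 H2A, 3 H2B and 4 H3 genes and no H1 or H4 gene. Hist1h2br (log2 ratio -0.59) lay just inside this threshold and Hist1h1d (-0.52) just outside. In all 41 of 55 members lay below 0, as did 7672 of the 11652 tested genes, and 36 lay below the median of all genes, 5 of 5 in H1, 10 of 14 in H2A, 9 of 16 in H2B, 6 of 9 in H3 and 6 of 11 in H4. The median log2 ratio was -0.28 over the members and -0.12 over all tested genes. The count of lower members was also split by shared sequence, which was not planned and is a description. Of the 17 tested members that shared no window with another gene, 0 were at least 1.5-fold lower in KO. Their median log2 ratio was -0.15, near that of all tested genes. Many of them, such as Hist1h1b and Hist1h4i, were H1 or H4 genes, types with no lower member at any level of sharing. The split therefore does not separate shared sequence from histone type.

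**Figure D1:**
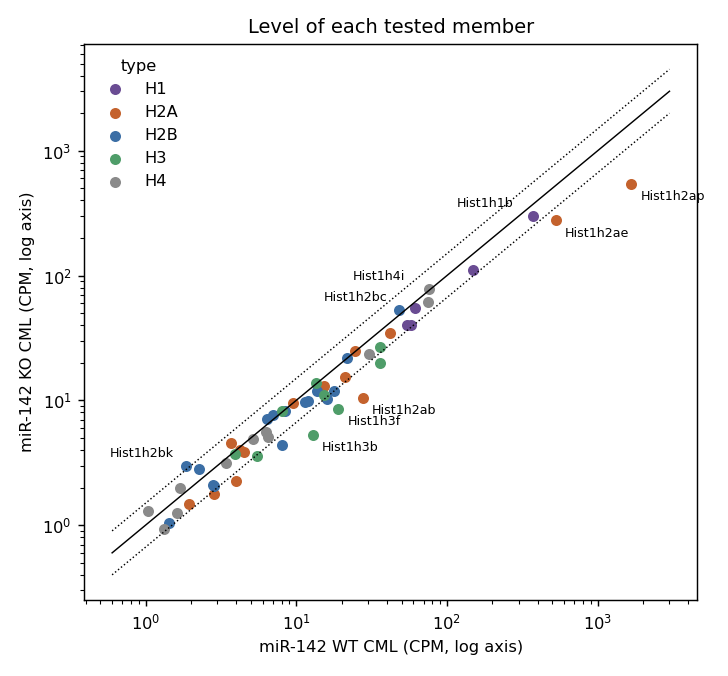
Level of each of the 55 tested members in miR-142 WT CML (x axis) and miR-142 KO CML (y axis), in CPM on log axes, coloured by histone type; the solid line marks equal levels and the dotted lines 1.5-fold. Hist1h2ap, at 1678 and 541 CPM, and Hist1h2ae, at 530 and 277 CPM, lie below the lower dotted line at the top of the range, while Hist1h4i and Hist1h2bc lie on or near the solid line.

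Among the H2A genes, Hist1h2ap (chromosome 13, 21833026 to 21833507, minus strand, 1 exon) was at 1678 (WT) and 541 CPM (KO), with log2 ratio -1.63 (interval -1.64 to -1.62) and the lowest of all tested members. Its annotated 3′ end carries a run of 12 A directly before the stem-loop, which begins 39 bases after the stop codon, shown here with the stem in capitals.
Hist1h2ap, bases 27 to 54 after the stop codon: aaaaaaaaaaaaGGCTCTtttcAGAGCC
Hist1h2ao, a near-identical copy that shares 352 of the 382 windows of Hist1h2ap, has the same 28 bases at the same place and stood at 0.333 and 0.391 CPM. A run of 10 or more A occurs in the annotated transcripts of 4 members, these 2 and Hist1h2ac and Hist1h2be, in which it lies 857 and 851 bases after the stop codon. Its part in the level of any of these genes was not tested. Because of the shared windows it cannot be told whether the level of Hist1h2ap includes molecules from its copies.

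Hist1h2ae (chromosome 13, 23570517 to 23571220) was the second most abundant member, at 530 CPM and 277 CPM (log2 ratio -0.94, interval -0.95 to -0.92). Hist1h2ab was at 27.5 and 10.5 CPM (-1.38, interval -1.47 to -1.31), the second lowest ratio. Named H2A genes outside the chromosome 13 clusters differed less than Hist1h2ap, Hist1h2ae and Hist1h2ab. Hist2h2ac on chromosome 3 was at 42.0 and 34.7 CPM (-0.27), Hist2h2aa1 at 21.2 and 15.4 CPM (-0.46) and Hist3h2a on chromosome 11 at 15.2 and 12.96 CPM (-0.23). Location did not separate the H2A genes, since Hist1h2ak (-0.20) and Hist1h2an (-0.08) on chromosome 13 also differed little. On chromosome 13 Hist1h2ac, at 24.5 and 25.04 CPM, and Hist1h2af, at 9.55 and 9.59 CPM, had intervals of the ratio that included 0. Hist1h2ag, at 3.70 and 4.57 CPM (0.30, interval 0.14 to 0.47), was higher in KO. Across H2A, then, tested genes ranged from -1.63 to 0.30 on the log2 scale.

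The H2B genes were far less abundant than the H2A genes in this assay. Hist1h2bc led with 48.2 (WT) and 53.3 CPM (KO) (log2 ratio 0.14, interval 0.10 to 0.19). Hist1h2bj was at 21.6 and 21.8 CPM, with an interval that included 0, and Hist1h2br at 17.9 and 11.9 CPM (-0.59, interval -0.68 to -0.50). Hist1h2bk, at 1.85 and 2.97 CPM (0.65, interval 0.46 to 0.90), had the highest ratio of all tested members and was the only one at least 1.5-fold higher in KO. Hist1h2bf, at 2.26 and 2.81 CPM (0.31), had the next highest. Both rest on fewer than 500 UMIs per library.

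Of the H3 genes, Hist1h3b had 12.8 (WT) and 5.31 CPM (KO) (log2 ratio -1.26, interval -1.39 to -1.15), and Hist1h3f 19.0 and 8.55 CPM (-1.14, interval -1.25 to -1.06). Hist1h3c was at 36.0 and 19.9 CPM (-0.85) and Hist1h3e at 35.9 and 26.6 CPM (-0.43). Hist1h3e and Hist1h3f share 52.8% of their windows with each other, yet lay on opposite sides of the 1.5-fold line.

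All 5 tested H1 genes were lower in KO. Hist1h1b, the most abundant of them, was at 370 and 300.002 CPM (log2 ratio -0.30, interval -0.32 to -0.28), and none of its windows is shared with another gene. Hist1h1e was at 149 and 112 CPM (-0.42), Hist1h1d at 57.8 and 40.2 CPM (-0.52), Hist1h1a at 54.5 and 40.5 CPM (-0.43) and Hist1h1c at 61.1 and 55.2 CPM (-0.15). Among the H4 genes Hist1h4i stood at 75.9 and 78.0 CPM (0.04, interval 0.00 to 0.08), Hist1h4d at 74.8 and 61.5 CPM (-0.28) and Hist1h4h at 30.5 and 23.3 CPM (-0.38). The 29 tested members not named by level, ratio or phase pattern had 0.934 to 16.0 CPM and log2 ratios from -0.87 to 0.28.

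Many H2A and H2B genes lie head to head and share 1 stretch of promoter DNA, which allows a comparison within pairs. The annotation gave 12 such pairs with gaps of 175 to 305 bases, of which 9 had both genes tested. In 6 of the 9 the H2A gene had the lower ratio. Hist1h2ap (-1.63) faced Hist1h2br (-0.59), and Hist1h2ae (-0.94) faced Hist1h2bg, which was at 6.44 and 7.04 CPM (0.13). Hist1h2ac and Hist1h2bc were a pair in which neither gene was lower (0.03 and 0.14). In the pairs Hist2h2ac and Hist2h2be (-0.27 and -0.46), Hist1h2an and Hist1h2bp (-0.08 and -0.41), and Hist1h2ag and Hist1h2bj (0.30 and 0.01), the order was the opposite. The shared stretches of the pairs with the 2 most abundant members are printed here, since the paired genes are so unlike in level (GRCm38, RefSeq sequence, plus strand, from the H2A gene on the minus strand to the H2B gene on the plus strand).
Hist1h2ae to Hist1h2bg, chr13:23571221-23571395: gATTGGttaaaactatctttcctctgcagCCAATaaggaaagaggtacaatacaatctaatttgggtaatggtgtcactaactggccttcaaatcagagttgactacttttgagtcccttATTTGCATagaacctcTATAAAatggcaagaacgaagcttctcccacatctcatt
Hist1h2ap to Hist1h2br, chr13:21833508-21833742: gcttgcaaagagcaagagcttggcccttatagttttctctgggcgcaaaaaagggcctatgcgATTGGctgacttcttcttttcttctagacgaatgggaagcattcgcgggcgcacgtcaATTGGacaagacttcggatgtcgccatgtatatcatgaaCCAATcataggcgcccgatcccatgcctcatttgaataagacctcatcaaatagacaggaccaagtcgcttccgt
Capitals mark matches, on either strand, to the octamer ATTTGCAT, known as a binding motif of Oct1 in H2B promoters, to CCAAT and to TATAAA. No match overlaps another in these stretches. The first stretch holds 1 octamer, 2 CCAAT and 1 TATAAA, and the second 3 CCAAT and neither of the others.

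The same letters were searched from 250 bases before to 50 bases after the start of each gene in RefSeq (GRCm38.p6), in which 62 of the 67 members were matched. The octamer was present in 7 of 18 H2A and 6 of 16 H2B promoters and in none of the H1, H3 and H4 promoters, against 1.74% of 32851 promoters in all. CCAAT was present in 53 of 62 members (37.4% of all promoters), namely in every H1, H2A, H2B and H3 promoter but in only 3 of 12 H4 promoters. TATAAA was present in 35 of 62 (13.6% of all promoters). Since H2A and H2B promoters of a pair overlap, they are not independent.

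Along the genome the difference between libraries was uneven. Of the members 54 lie in 3 blocks on chromosome 13. The block from 21715763 to 21837530 (18 members, with Hist1h2ap and Hist1h1b) summed to 2117 (WT) and 900.1 CPM (KO), with 3 of 15 tested members at least 1.5-fold lower, and the block from 23531050 to 23934851 (31 members, with Hist1h2ae) to 1268 and 849 CPM, with 7 of 26 (11.7% of all tested genes were). The small block between them, from 22035164 to 22043676 (5 members, 4 tested), summed to 103 and 108 CPM. Its 4 tested members, Hist1h4i, Hist1h2bj, Hist1h2ag and Hist1h2bk, had log2 ratios above 0 (0.01 to 0.65), although the interval of Hist1h2bj included 0. The 10 members on chromosome 3 summed to 90.4 and 71.8 CPM.

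To follow the members through the cell cycle, barcodes were gated by 39 S-phase and 53 G2/M genes, none of them a histone gene, ranked over both libraries together. The gate for S held barcodes in the upper quartile of the S list, that for G2/M those in the upper quartile of the G2/M list, each taking the list with the higher rank, and the low-cycle gate those below the median of both. The low-cycle gate held 31.2% of WT and 29.7% of KO barcodes, the S gate 27.2% and 20.4%, the G2/M gate 26.7% and 20.3%, and the remainder, called intermediate, 14.9% and 29.5%. Median UMIs were unequal between the gates, from 11645 (low-cycle) to 28111 (G2/M) in WT and from 12002 to 35785 in KO, so ratios between gates are of CPM. Within 5 percentile points of the upper-quartile limit lay 468 WT and 614 KO barcodes for the S list and 442 and 640 for the G2/M list.

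The class was 4.85-fold higher in the S gate than in the low-cycle gate in WT (4134 and 853 CPM, interval of the ratio 4.77 to 4.92) and 3.83-fold in KO (2303 and 602 CPM, interval 3.76 to 3.90). By member, 41 of 55 in WT and 43 of 55 in KO were at least 2-fold higher in the S gate, where 7.43% and 6.43% of all tested genes were. Only 3 members in WT and 2 in KO were at least 2-fold higher in the low-cycle gate, where 10.5% and 12.8% of all genes were. The summed ratio rested in part on Hist1h2ap, without which it was 3.20 in WT and 3.14 in KO. The level was higher still in the G2/M gate, at 4931 and 2537 CPM. Between the S and low-cycle gates H2A differed most, 8.72-fold in WT and 6.56-fold in KO, followed by H3 (4.12 and 3.87), H1 (3.26 and 3.92) and H4 (2.72 and 3.05). Without Hist1h2ap and Hist1h2ae, however, H2A was at 2.55 and 2.09, below these 3 types. H2B as a sum had a ratio of S over low-cycle of 0.964 (interval 0.926 to 1.004) in WT and 1.02 (0.977 to 1.06) in KO. In G2/M over low-cycle it was at 1.37 (1.32 to 1.42) and 1.30 (1.25 to 1.35).

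**Figure D2:**
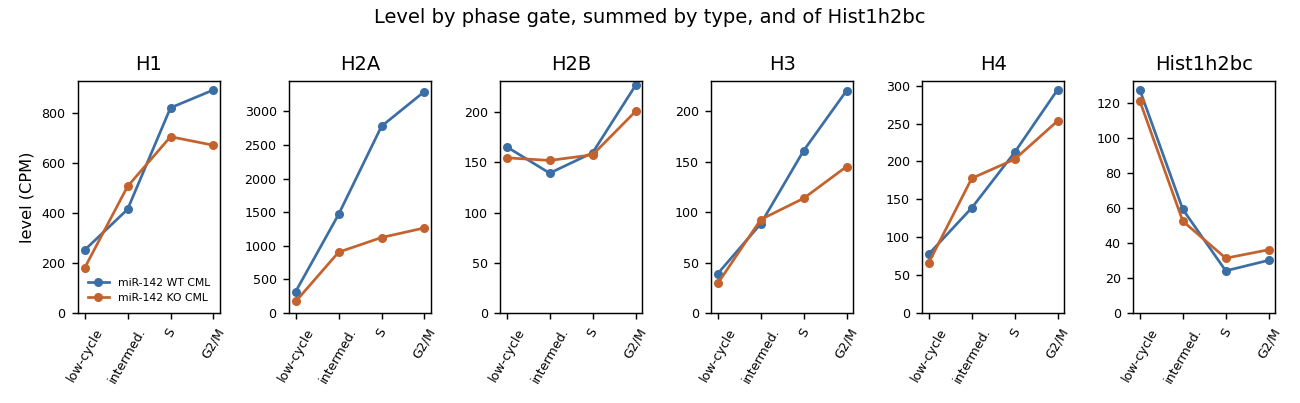
Level in CPM (y axes, from 0) in the low-cycle, intermediate, S and G2/M gates (x axes) in WT and KO, summed over the members of each histone type and for Hist1h2bc alone. H2A goes from 319 to 3295 CPM in WT and from 171 to 1266 CPM in KO, whereas Hist1h2bc is highest in the low-cycle gate, at 127 and 121 CPM.

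A high rank on the S list alone did not go with a high level. Among barcodes in the top quartile of the S list, those in the second quartile of the G2/M list stood at 872 CPM in WT (608 barcodes) and 928 CPM in KO (526 barcodes), against 759 and 542 CPM in barcodes in the lowest quartile of both lists. In the third quartile of the G2/M list the level was 5191 and 3110 CPM, and in the top quartile 9136 and 5991 CPM, the last over 258 and 38 barcodes. Barcodes high on the G2/M list but in the lowest quartile of the S list were at 2205 and 1822 CPM. Of the 16 combinations of quartiles, 15 held enough barcodes for a value in both libraries, and the class was lower in KO in all of them other than the second G2/M quartile with the third (740 and 828 CPM) and top (872 and 928 CPM) S quartiles.

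**Figure D3:**
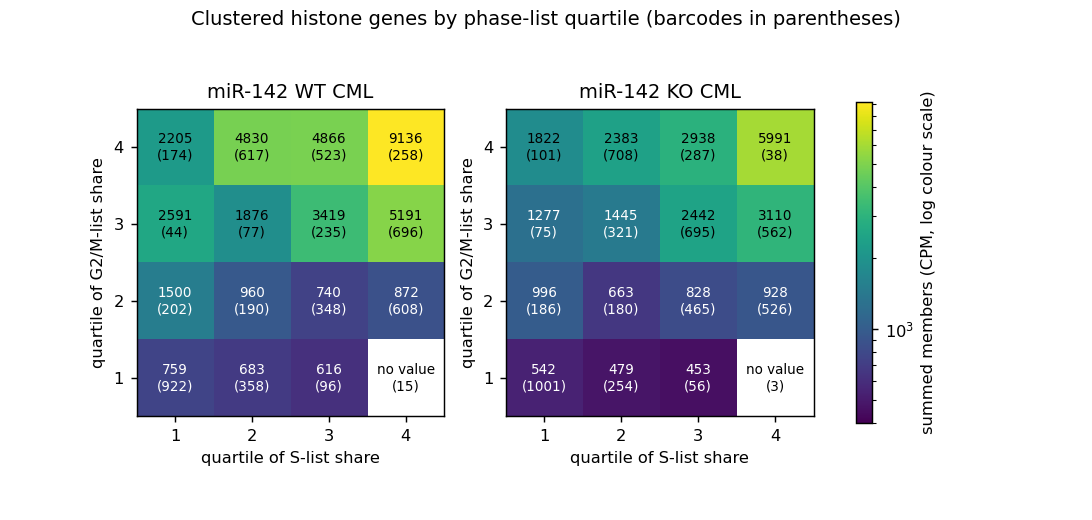
Summed level of the 67 members (colour on a log scale, CPM printed in each square, barcodes in parentheses) by quartile of the S-list share (x axis) and of the G2/M-list share (y axis), for miR-142 WT CML (left) and miR-142 KO CML (right). The level is highest where both shares are high, 9136 (WT) and 5991 CPM (KO), and at 872 and 928 CPM is low where the S share is in the top quartile and the G2/M share in the second.

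Single members departed from the class. By the mean log2 ratio of both libraries, with 0.1 CPM added, the steepest were Hist1h2af, with 9.41 CPM in the S gate against 0.184 CPM in the low-cycle gate in WT and 11.3 against 0.312 CPM in KO, Hist1h3b (15.8 against 0.322 and 6.27 against 0.223 CPM) and Hist1h3c (38.5 against 1.11 and 20.1 against 0.623 CPM). The low-cycle values of Hist1h2af and Hist1h3b rest on 4 to 7 UMIs, so their ratios of 28.2 to 51.0 are loose. Hist1h1b was 19.6-fold higher in the S gate in WT (506 against 25.8 CPM) and 32.9-fold in KO (423 against 12.9 CPM), and Hist1h2ap 11.1-fold and 9.47-fold.

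Hist1h2bc went the other way, with 127 CPM in the low-cycle gate and 24.1 CPM in the S gate in WT, a 5.29-fold excess in the low-cycle gate (interval 4.92 to 5.68), and 121 and 31.3 CPM in KO (3.87-fold, interval 3.60 to 4.16). Hist3h2a was 2.43-fold and 2.18-fold higher in the low-cycle gate, Hist1h1c 2.07-fold and 1.94-fold, and Hist1h2ac, the divergent partner of Hist1h2bc, 1.51-fold and 1.83-fold. All 4 were on the low-cycle side in both libraries, and Hist3h2ba, named after its values were seen, was the only other tested member there, with log2 ratios of S over low-cycle of -0.87 in WT and -0.29 in KO. H2B summed to 166 and 155 CPM in the low-cycle gate, of which Hist1h2bc made up the larger part, while 11 of 16 tested H2B genes were at least 2-fold higher in the S gate in both libraries.

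Members with a long annotated 3′ end were less raised in the S gate. This split was chosen after the values had been seen and is a description. Of the 34 tested members with under 200 annotated bases after the stop codon, 31 were at least 2-fold higher in the S gate in both libraries, with a median log2 ratio of 2.73 in WT and 3.06 in KO. Of the 21 with 200 or more, 8 were, with medians of 0.86 and 1.26. Hist1h2bc (742 bases after the stop codon, 2 exons, no stem-loop found), Hist1h1c (880), Hist3h2a (1700) and Hist1h2ac (2058) were all among the latter. The length of an annotated end is that of the gene model and was not measured here.

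**Figure D4:**
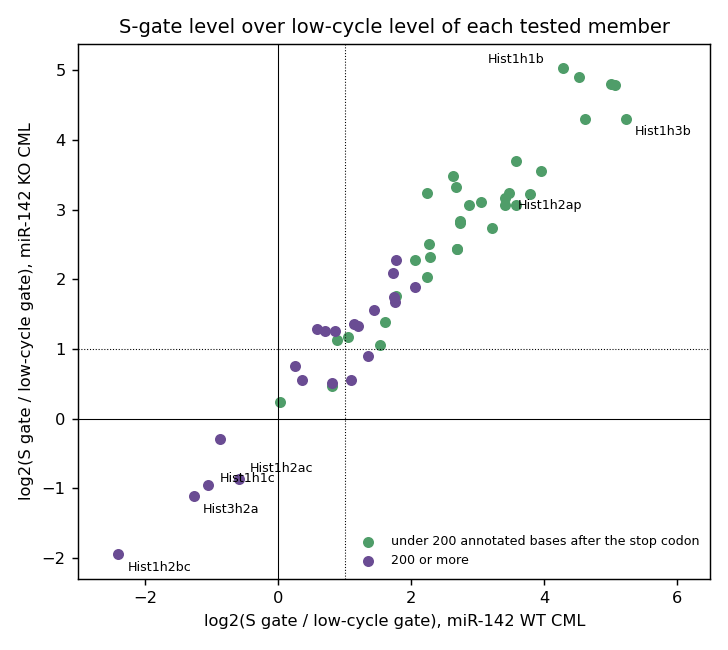
Log2 ratio of the level in the S gate over the low-cycle gate for each of the 55 tested members, in miR-142 WT CML (x axis) and miR-142 KO CML (y axis), coloured by the length of the annotated transcript after the stop codon; dotted lines mark 2-fold. Members with 200 or more bases lie mostly toward the lower left, with Hist1h2bc lowest, and those with under 200 toward the upper right.

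The ratio between libraries was then taken inside each phase gate. H2A was lower in KO in all 4, by log2 ratios of -1.31 (S), -1.38 (G2/M), -0.70 (intermediate) and -0.90 (low-cycle). Hist1h2ap had -1.68 in the S gate, -1.68 in the G2/M gate and -1.45 in the low-cycle gate, and Hist1h2ae -0.77, -1.05 and -0.82. In the intermediate gate they were at -1.003 and -0.15. H2B and H4 lay between -0.23 and -0.02 in the S, G2/M and low-cycle gates. Of the 55 members, 38 lay below 0 in the S gate, 47 in the G2/M gate, 36 in the low-cycle gate and 19 in the intermediate gate. Their medians were -0.20, -0.27, -0.25 and 0.19, against -0.10, -0.13, -0.05 and -0.11 over all tested genes. In the intermediate gate 80.8% of KO but 35.0% of WT barcodes were granule-high (below), the G2/M list stood at 6592 CPM in KO and 6039 CPM in WT, and median UMIs were 35692 and 19850. The part of these differences in the intermediate values was not tested. Over all barcodes the S list was at 3182 (WT) and 2832 CPM (KO) and the G2/M list at 8219 and 7173 CPM. In these lists 0 of 39 and 6 of 53 genes were at least 1.5-fold lower, where 11.7% of all tested genes were, so the G2/M count was near that share.

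Barcodes were also gated by lineage markers. The largest gate was granule-high (Elane, Prtn3 and Ctsg together at 0.2% or more of UMIs), with 1349 WT and 3533 KO barcodes. Near its limit, between 0.15% and 0.25%, lay 623 and 468 barcodes. HSC-gated barcodes (3 or more of 6 stem cell genes) numbered 645 and 99, lymphoid-primed ones (Flt3 and Dntt) 677 and 216, megakaryocyte ones 643 and 354 and basophil/mast ones 326 and 357, while 1657 and 680 met no gate. In these 6 groups the class summed to 3293 to 4209 CPM in WT and 1683 to 2415 CPM in KO. The megakaryocyte gate was highest in WT and the HSC gate in KO.

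H2A was lower in KO in all 6 groups. Over whole gates, the log2 ratio was smallest in the HSC gate (2185 and 1268 CPM, -0.79, interval -0.86 to -0.72) and largest in the basophil/mast gate (2359 and 782 CPM, -1.59, interval -1.63 to -1.55), with -1.27 to -1.40 in the others. This order is not free of phase makeup, since 113 of 326 WT and 204 of 357 KO basophil/mast barcodes were low-cycle. Inside phases H2A was at -0.97 (G2/M) and -0.92 (low-cycle) in the HSC gate. In the basophil/mast gate it was at -1.33 (G2/M), -1.47 (S), -0.98 (intermediate) and -0.48 (low-cycle). H1 and H3 were lower in KO over the whole of each group other than the HSC gate, where their intervals included 0. Inside phases this was not uniform. In the lymphoid-primed gate the H1 intervals included 0 in the S, G2/M and intermediate phases (-0.07, -0.08 and -0.18). In the basophil/mast gate H1 and H3 were at 0.07 and -0.05 (intermediate) and 0.13 and 0.10 (low-cycle), all with intervals that included 0. In the megakaryocyte intermediate phase they were at 0.45 and 0.46. The phase makeup of the HSC gate was unequal, with 147 of 645 WT and 31 of 99 KO barcodes in G2/M. Of its phases only G2/M and low-cycle held 20 or more barcodes in both libraries. There H1 was lower in KO, with log2 ratios of -0.18 in G2/M (interval -0.32 to -0.05) and -0.52 in the low-cycle gate (interval -0.82 to -0.24). H3 was at -0.29 (interval -0.57 to -0.02) and 0.12 (interval -0.56 to 0.74). H2B was at 0.24 (interval 0.01 to 0.47) and -1.20 (interval -1.64 to -0.79). The class without Hist1h2ap was at -0.18 (interval -0.25 to -0.10) and -0.66 (interval -0.84 to -0.48) in the same phases, against an interval of -0.08 to 0.04 over the whole HSC gate. H2B was higher in KO in the lymphoid-primed gate (223 and 269 CPM, 0.27, interval 0.17 to 0.38) and lower in the granule-high gate (172 and 161 CPM, -0.10, interval -0.13 to -0.06). Of lymphoid-primed barcodes 178 of 677 in WT and 103 of 216 in KO were low-cycle. Inside the phases of that gate H2B was at -0.06 (low-cycle) and 0.13 (S), both with intervals that included 0. It was at 0.30 in G2/M and 1.01 in the intermediate phase, the last on 26 KO barcodes. Hist1h2bc alone was at 1.12 and 1.23 there, and in the intermediate phase held 311 of 475 WT and 130 of 171 KO H2B UMIs. When the lineage and phase gates were crossed, 22 combinations held 20 or more barcodes in both libraries, and in all 22 H2A and Hist1h2ap were lower in KO (median log2 ratio -1.03 and -1.47). These are not separate results: H2A held 65.7% (WT) and 48.5% (KO) of member UMIs, but 4.49% and 6.51% without Hist1h2ap and Hist1h2ae. The class without Hist1h2ap was lower in 20 combinations (median -0.22), with the interval wholly below 0 in 17 and wholly above 0 in 2. Hist1h2ae was lower in 21, H3 in 19, H1 in 18, H4 in 14 and H2B in 9 of the 22. Intervals lay wholly below 0 in 14 combinations for H1 and 14 for H3, and wholly above 0 in 2 and 1. For H2B the interval lay wholly above 0 in 10 combinations and wholly below 0 in 5, with a median log2 ratio of 0.13. The most abundant H2B gene, Hist1h2bc, had 11 and 3 such combinations and a median of 0.24, so the H2B sum need not describe the other H2B genes.

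**Figure D5:**
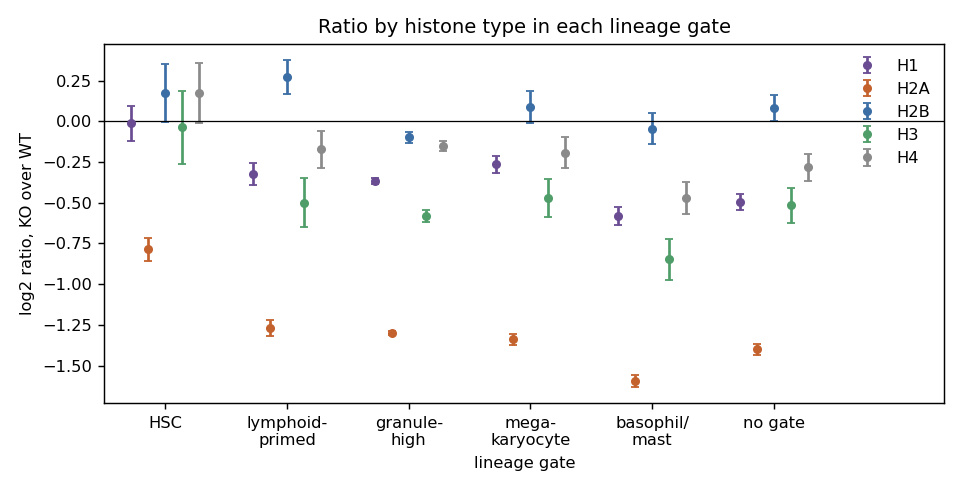
Log2 ratio of the summed level (miR-142 KO CML over miR-142 WT CML, y axis) for each histone type in 6 groups of barcodes gated by lineage markers (x axis), with exact 95% intervals for counting error. H2A lies lowest in every group, from -0.79 in the HSC gate to -1.59 in the basophil/mast gate, and H2B lies between -0.10 and 0.27.

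The remaining gates were small in 1 of the libraries and are given as values. The ILC gate (Il7r, Icos and Gata3) had 13 WT and 215 KO barcodes with the class at 4094 and 1695 CPM. Antibody-secreting barcodes numbered 39 in WT and 1 in KO. In WT they stood at 1255 CPM, the lowest of the WT gates, and 35 of the 39 were also in the low-cycle gate. The erythroid gate held 14 and 3 barcodes.

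Genes that act with the clustered histones were taken from lists. Of 11 variant histone genes outside the clusters, which are made throughout the cell cycle for the most part, H1fx alone was at least 1.5-fold lower in KO, at 77.8 and 31.3 CPM (log2 ratio -1.31, interval -1.36 to -1.26). H2afz, which codes for H2A.Z, was at 2464 and 3028 CPM (0.30), H3f3b, which codes for H3.3, at 2231 and 2572 CPM (0.21), and H2afy, which codes for macroH2A, at 2060 and 1647 CPM (-0.32). As a sum the variants were at 10217 and 10585 CPM. Of the 11, only H2afz and H2afx were at least 2-fold higher in the S gate than in the low-cycle gate in both libraries. Their log2 ratios of S over low-cycle were 1.47 and 1.93 in WT and 1.17 and 1.77 in KO. Of 7 tested factors of histone gene transcription and mRNA processing none passed 1.5-fold: Slbp, the stem-loop binding protein, was at 151 and 121 CPM (-0.32), Srrt, a partner of the cap-binding complex, at 86.7 and 81.6 CPM (-0.09) and Casp8ap2, a factor of 3′ end processing also called FLASH, at 56.1 and 45.4 CPM (-0.30). Of 11 histone chaperones and related factors none passed either, with Supt16 at 224 and 212 CPM, Ssrp1, its partner in the FACT complex, at 207 and 148 CPM (-0.48), and Nasp, a chaperone of H3 and H4, at 200.1 and 186 CPM. The median log2 ratio was -0.25 over the variants, -0.14 over the processing factors and -0.18 over the chaperones.

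Free RNA differed between the libraries in the same direction as the class. In barcodes with 100 or fewer UMIs, which hold free RNA, the members stood at 2504 (WT) and 1197 CPM (KO), and Hist1h2ap at 1495 and 418 CPM. Hist1h2bc was at 62.2 and 61.9 CPM there. In the low-cycle gate Hist1h2ap was at 178 (WT) and 65.2 CPM (KO), below its level in free RNA. The part of free RNA in the levels of gated barcodes was not tested.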

How the data were processed

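The authors aligned reads with Cell Ranger (6.1.2 per the labels and the methods, while the file headers name another version) to mm10, and deposited UMI counts per gene and barcode that are raw and unfiltered for cells. Barcodes with 8000 or more UMIs and under 10% mitochondrial UMIs were kept, above the cutoff of the study. The mitochondrial filter removed 24 WT and 4 KO barcodes. No doublet caller was run. Counts were summed over a library or gate and scaled to CPM (Python 3.11.15, numpy 2.4.6, scipy 1.17.1). Log2 ratios of genes used a pseudocount of 0.1 CPM, with exact Poisson intervals for levels and conditional binomial intervals for ratios. Positions and transcripts came from GENCODE M21 and promoters from RefSeq. The calculation was tested on simulated counts. Named members had 20 CPM or more, ranked in the top 3 of their type, or had the 3 highest or lowest ratios between libraries or gates. The members and lists were chosen with earlier results of these data known. Of 9 names in the list of processing factors 8 were found, since Ars2 is an older name of Srrt. Alternatives changed the UMI cutoff, scaling, filter, fold, gates, weighting and members.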

Additional observations from a re-analysis of the deposited data

Results flagged for a closer look

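The difference between libraries had opposite signs in different gates for some types, each beyond counting error, and whether the gates differed was not tested. H2B had log2 ratios (KO over WT) of 0.27 in the lymphoid-primed gate and 0.084 in barcodes with no lineage gate but -0.10 in the granule-high gate. The phase makeup of the lymphoid-primed gate was unequal, with 178 of 677 WT and 103 of 216 KO barcodes low-cycle. Across the phase gates H2B was at 0.13 in the intermediate gate, -0.18 in the G2/M gate and -0.10 in the low-cycle gate. H1 was at 0.29 in the intermediate gate and at -0.22 in the S gate, -0.41 in the G2/M gate and -0.48 in the low-cycle gate. Inside lineages the H1 ratio of the intermediate gate was 0.45 (megakaryocyte), 0.11 (granule-high), 0.07 (basophil/mast), -0.18 (lymphoid-primed) and -0.22 (no gate), the last 3 with intervals that included 0, and 35.0% of WT and 80.8% of KO barcodes of this gate were granule-high. H4 was at 0.36 in the intermediate gate and at -0.064 in the S gate, -0.22 in the G2/M gate and -0.23 in the low-cycle gate. Read against the median of all genes (-0.12), the values of H2B and H4 near that size carry no direction.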

How the results depend on the processing

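The class was lower in KO under every alternative, from a log2 ratio of -0.89. It was -0.90 and -0.96 with cutoffs of 4000 and 16000 UMIs, -0.88 without the barcodes of most UMIs, -0.76 with size factors, -0.85 with each barcode weighted the same, -0.74 and -0.69 when weighted to one composition of phase, or of lineage and phase, and -0.45 without Hist1h2ap. Alternatives chosen after the data were seen gave -0.30 without the 2 most abundant members and -0.45 without members that shared at least 50% of windows. The latter set kept Hist1h2ae, which shared 46.25% of its windows. Of the 22 tested members that shared at least 50% of windows, 8 were at least 1.5-fold lower in KO. Of the 33 that shared less, 4 were, including 0 of the 17 that shared no window. Tested members that shared no window had a median log2 ratio of -0.15. Many of them were H1 or H4 genes, types with no lower member, so sharing was not separated from histone type. The counts of 12 lower and 1 higher members became 7 and 0 among genes at 10 CPM or more (27 members, 4.81% of all genes lower), and 4 and 0 at 2-fold (55 members, 4.33% lower). With size factors 8 of 55 were lower (8.66% of all genes) and with one phase composition 8 of 53 (9.75%). The ratio of S over low-cycle gates in WT (4.85) was 5.04 with gates at the 90th percentile, 4.58 and 4.96 with 4000 and 16000 UMIs, 4.17 with each barcode weighted the same and 4.72 without the barcodes of most UMIs. In KO (3.83) it was 3.47, 4.01, 2.60 and 3.36 under the first 4 of these. Of 26 named members none past 1.5-fold changed sign, and Hist1h2ac, Hist1h2af, Hist1h2bc and Hist1h2bj, all near 0, did. The causes were not tested. With 1 library per group no library could be left out and no spread between mice is known. No paired analysis was possible because there was 1 library per group.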
